A study of Bos taurus with 6 samples.

Results

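The proteasome genes described here are the array's probes whose platform gene symbol begins with PSMA, PSMB, PSMC, PSMD, PSMF or PSMG and a digit, without PSMB8, PSMB9 and PSMB10. This rule uses names and no measured value. It gave 70 probes for 41 genes, of 15216 genes with a named probe. They were measured in bovine cumulus cells, the somatic cells around the oocyte, in cumulus-oocyte complexes from ovaries of slaughtered Holstein cows. Cells after 6 h of in vitro maturation were compared with cells taken before maturation (0 h) on dual-colour Agilent arrays. There were 3 biological replicates, and each was hybridised on 2 arrays with the Cy3 and Cy5 dyes exchanged, for 6 arrays in all. The 6 h complexes matured in TCM-199 medium with 10% serum, 0.33 mM pyruvate and estradiol at 1 µg/ml. Culture was at 38.5 °C with 5% CO2 and 20% O2. The 0 h cells were removed mechanically without culture. The complexes of both groups had at least 5 cumulus layers and came from the same kind of ovary, and no other treatment or genotype is named. The labels do not say how many animals or complexes a replicate pooled. Each p-value rests only on these 3 samples, through a gene's spread between them, moderated by the spread of all genes tested.

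The 26S proteasome is the protease that degrades proteins tagged with ubiquitin. Its barrel-shaped 20S core is built of outer rings of alpha subunits, which form the gate, and inner rings of beta subunits, some of which carry the proteolytic sites. The 19S regulatory particle caps the barrel: a ring of ATPases unfolds the substrate, other subunits of the base bind ubiquitin and shuttle factors, and the lid holds a deubiquitinase. Dedicated chaperones assemble the core and the base. These roles are known mainly from yeast and human cells. Proteasome inhibitors block meiotic progression in oocytes of several mammals and, in pigs, expansion of the cumulus.

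Of the 41 genes, 39 were tested, and the brightest probe of each passed the background filter on every array at both times, so none entered through one time alone. A probe passed this filter on an array where its spot was brighter than a limit of 2 SD above the mean of the 153 negative controls. The remaining genes were PSMA8, an alpha subunit of the testis, and PSMB11, a catalytic subunit of the thymus cortex. PSMA8 was above background on 2 of 6 arrays at each time and PSMB11 on 5 of 6 at each time, and neither was tested. PSMD13, a lid subunit, was not analysed here. In every sentence below a ratio is the log2 ratio of 6 h over 0 h, averaged over the dye swap of a replicate and then over 3 replicates, with the SD between replicates (n = 3). A level is a log2 intensity after normalization and is compared only within 1 probe.

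In cumulus cells over 6 h, a smaller share of proteasome genes than of all genes passed the test, with ratios under 2-fold. A gene that did not pass may still have changed: 10 of the 39 had a 95% interval within 0.5 of 0. Of the 39 genes, 8 passed the test (20.5%), against 35.6% of 9217 genes tested over the whole array (limma's moderated test, Benjamini-Hochberg adjusted p under 0.05). Higher at 6 h were 7 proteasome genes (17.9%), PSMA5, PSMD4, PSMD2, PSMD11, PSMC3, PSMB2 and PSMC5, against 17.4% of all genes, a share close to the background. Lower was 1 gene, PSMB3 (2.56%), against 18.2% of all genes. At an unadjusted p under 0.05, 11 of the 39 were higher and 5 lower, against 21.8% and 23.8% of all genes. No proteasome gene reached a 2-fold ratio, while 11.7% of all genes did. The ratios of the 39 genes lay between -0.65 and 0.79, with an SD of 0.35 across genes, against 0.70 across all genes tested. Their median was 0.15, against -0.02 for all genes. The median was 0.08 under the authors' deposited ratios, without the filter on dim probes and without replicate 3, and 0.09 without replicate 2.

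The calls depended on having all 3 replicates. Without replicate 2, PSMA5 was the 1 proteasome gene still called, and over all genes 1351 were called, against 3284 with all replicates. The ratios themselves moved little: without replicate 2 they were 0.72 for PSMD4, 0.67 for PSMD2, 0.49 for PSMC3, 0.37 for PSMB2, 0.36 for PSMC5 and -0.49 for PSMB3, and PSMD11 moved most, to 0.43. Without replicate 3, 4 were called higher and 1 lower, and without replicate 1, 5 higher and 3 lower.

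**Figure D1:**
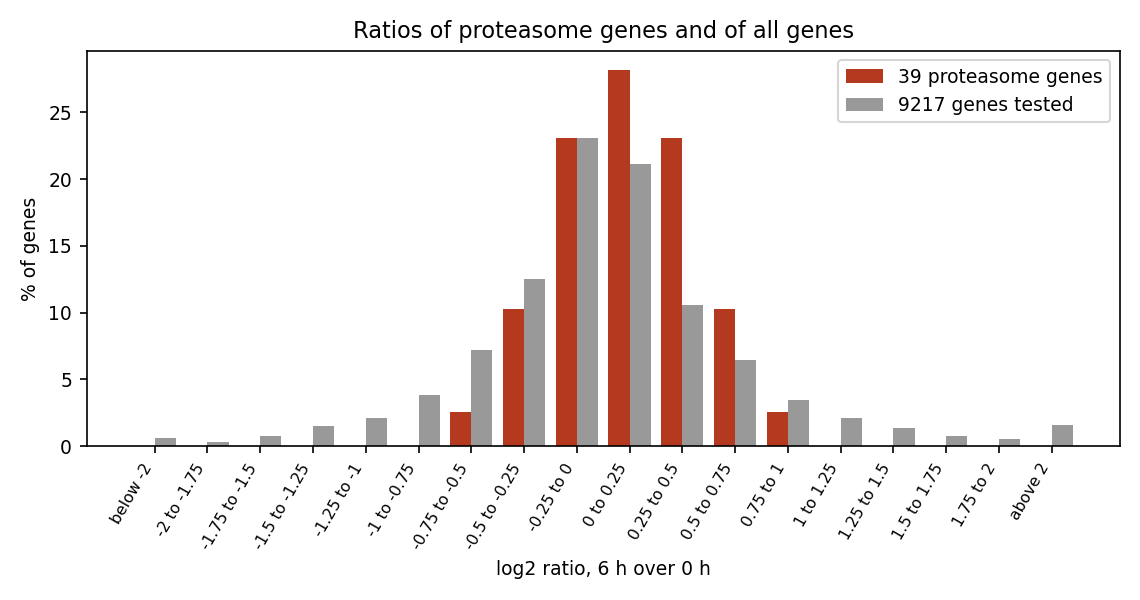
Share of genes (% of genes, vertical axis) by log2 ratio of 6 h over 0 h (horizontal axis, steps of 0.25), with the 39 proteasome genes beside the 9217 genes tested. The proteasome genes lie between -0.65 and 0.79 and none is in the outer bins, and 23.1% of them lie between 0.25 and 0.5, against 10.6% of all genes.

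The replicates gave different pictures of the set. The median over the 39 genes was 0.02 in replicate 1, 0.29 in replicate 2 and 0.13 in replicate 3, against 0.00, -0.03 and -0.02 over all genes. Above 0 were 21, 29 and 25 of the 39 genes. Across the 39 genes, which are not independent of each other, the ratios of replicates 2 and 3 correlated at r = 0.727, those of replicates 1 and 2 at 0.579 and those of replicates 1 and 3 at 0.442. Over all genes these correlations were 0.872, 0.825 and 0.75. All 3 replicates had the same sign in 24 of the 39 genes (61.5%), against 64.0% of all genes. Among these 24, 17 were above 0 in every replicate (43.6% of the 39, against 30.6% of all genes) and 7 were below 0 in every replicate (17.9%, against 33.4%). Of the 15 genes with both signs, 6 were below 0 in replicate 1 and above 0 in replicates 2 and 3. They were PSMA4, PSMA6, PSMA7, PSMC2, PSMD12 and PSMD14, subunits of the core, the ATPase ring and the lid. Over the 39 genes, replicate 1 was the lowest in 18 and replicate 3 in 17, while replicate 2 was the highest in 21. Replicate 1 was thus not the only one to differ, though it correlated least with the others. Replicate 1 also had the lowest shares of probes above background in Cy5, 51.3% on its first array and 41.3% on its other array, against 57.3% to 79.9% in Cy5 on the arrays of replicates 2 and 3. The part of this in the ratios was not tested.

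Other properties of the samples moved over the same replicates. Of 16 oocyte markers, 10 were tested and 0 were called by limma, 0 also at an unadjusted p under 0.05. For 8 of the 10 the probe was not above background on every array at one of the times, so their ratios are not given. Their summed linear intensity was 5280, 2640 and 6140 in replicates 1, 2 and 3 at 6 h, against 1440, 1450 and 14100 at 0 h, higher at 6 h in replicates 1 and 2 and lower in replicate 3. For the counts of markers that follow, 17.4% of all genes tested were higher at 6 h and 18.2% lower. Of 12 cumulus and granulosa markers tested, 6 were lower at 6 h, among them FSHR and CYP19A1, and 0 higher. Their summed intensity was 138000 to 155000 at 6 h and 176000 to 184000 at 0 h, sums that include 3 genes with a saturated spot on at least 1 array, INHA, INHBA and SERPINE2. Of 6 theca and stroma markers, 4 were higher, with a summed intensity of 24500 to 31600 at 6 h and 14900 to 25100 at 0 h. Of 3 leukocyte markers tested, 1 was higher, CD68, with sums of 649 to 2120 at 6 h and 473 to 1420 at 0 h, while none of 5 endothelial markers passed the filter on background. None of these markers was listed at 0, and 1 leukocyte and 1 endothelial marker were below background on every array. The part of these cell types in the proteasome ratios was not tested, and a change in their number and a change in RNA per cell cannot be told apart here.

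**Figure D2:**
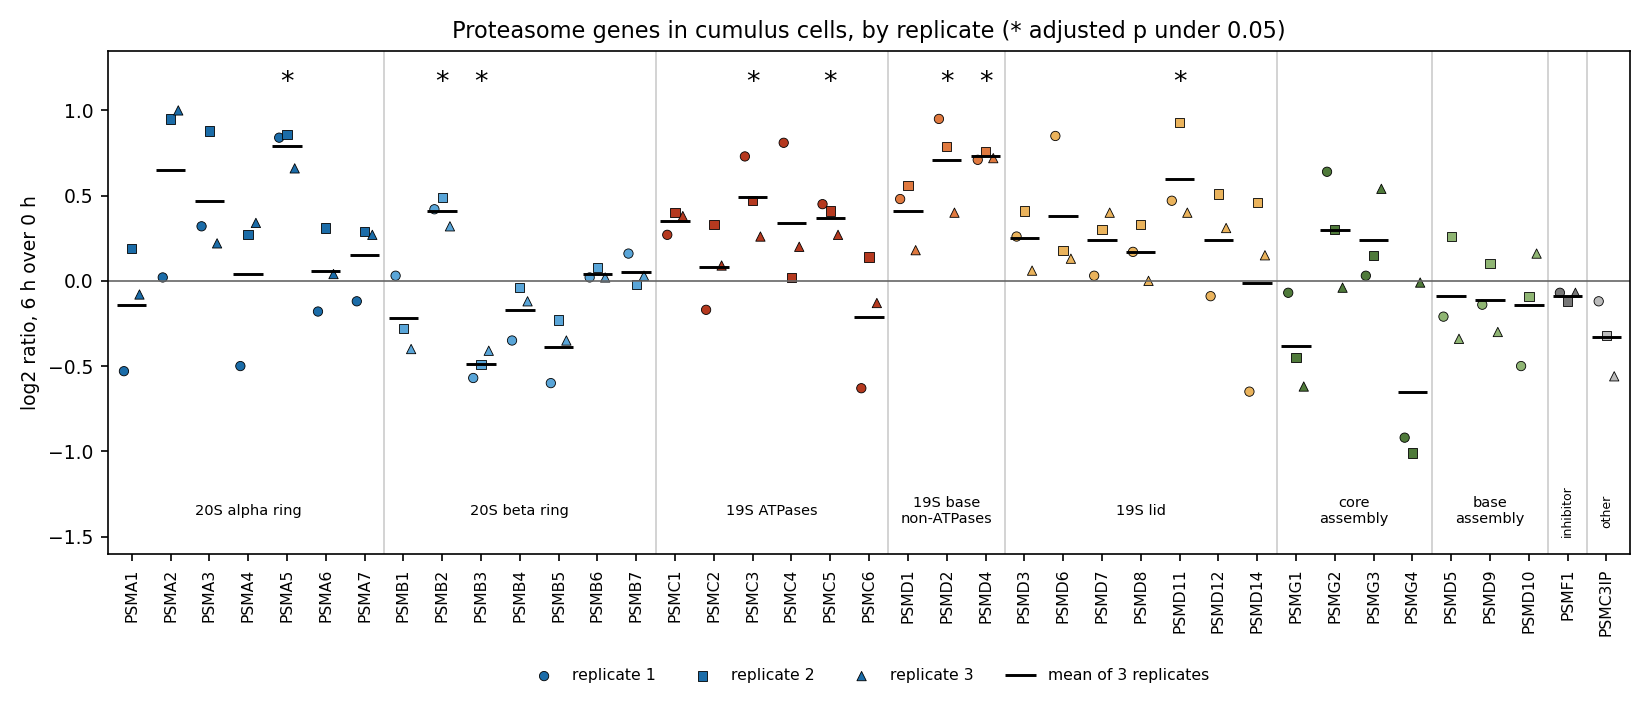
Log2 ratio of 6 h over 0 h (vertical axis) for each of the 39 tested proteasome genes (horizontal axis), grouped by role, with a circle, square and triangle for replicates 1, 2 and 3 and a bar for their mean. Asterisks mark the 8 genes with an adjusted p under 0.05. Most bars of the 19S groups lie above 0, while those of the beta ring and of the assembly chaperones lie on both sides.

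Among the alpha subunits, which form the gate of the core, 1 of 7 tested genes was higher at 6 h (14.3%) and 0 were lower. Over all genes the shares were 17.4% and 18.2%. The median alpha ratio was 0.15. PSMA5 (probe EMBV3_37627) was the highest of all proteasome genes. Its level was 13.78, 14.38 and 14.03 in replicates 1, 2 and 3 at 6 h, against 12.94, 13.51 and 13.37 at 0 h. Every 6 h level was above every 0 h level. PSMA5 rose by 0.79 ± 0.11, or 1.73-fold, with the same sign on 6 of 6 arrays (limma, adjusted p = 0.00536, 95% interval 0.51 to 1.06). It was called in 18 of 18 alternative processings, with adjusted p-values of 0.000443 to 0.0487 (limma).

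PSMA2, an alpha subunit with 6 tested probes, was split by replicate. The brightest probe (EMBV3_38626) had levels of 13.31, 14.69 and 14.94 at 6 h, against 13.30, 13.74 and 13.95 at 0 h. Replicates 2 and 3 were about 1 unit higher at 6 h, and replicate 1 was level, so the ratio of 0.65 ± 0.55 did not pass (limma, adjusted p = 0.07). Over the 6 probes the ratio ran between 0.16 and 0.78, and replicate 1 was below 0 for 4 of them (ratios of -0.10, -0.33, -0.18 and -0.36). The probe with the highest ratio, EMBV3_25120, had 0.58, 0.69 and 1.05 in replicates 1, 2 and 3, and it was past the threshold in a fit of every probe on its own (limma, adjusted p = 0.00895). Without replicate 1, the level one, the brightest probe had a ratio of 0.97 (limma, adjusted p = 0.00231, with 0.00231 to 0.285 over all alternatives). That fit drops the replicate that differed, so its p-value adds no support. Without replicate 2 the ratio was 0.51 and without replicate 3 it was 0.48 (limma, adjusted p = 0.285 and 0.228).

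PSMA3, another alpha subunit, had a ratio of 0.47 ± 0.36 that did not pass (limma, adjusted p = 0.0743). It was 0.32, 0.88 and 0.22 in replicates 1, 2 and 3. PSMA1 had the lowest alpha ratio, -0.14 ± 0.37. Its levels were 11.69, 11.90 and 11.52 at 6 h, against 12.22, 11.72 and 11.59 at 0 h, with replicate 1 lower and replicate 2 higher at 6 h. PSMA4, the counterpart of the yeast subunit whose tail closes the gate, PSMA6 and PSMA7 had ratios of 0.04, 0.06 and 0.15, and each was below 0 in replicate 1 alone. The probes of PSMA6 had opposite signs, 0.06 for the brightest and -0.13 for the other. The brightest had -0.18, 0.31 and 0.04 in replicates 1, 2 and 3, and the other had -0.41, 0.02 and 0.00.

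The beta subunits, which line the chamber, had a median ratio of -0.17 over 7 tested genes. Called were 1 higher and 1 lower (14.3% each), against 17.4% and 18.2% of all genes. PSMB3 (probe EMBV3_03497), a structural subunit without a proteolytic site, was the only proteasome gene called lower. Its level was 12.57, 12.74 and 12.61 at 6 h, against 13.14, 13.22 and 13.02 at 0 h. Every 6 h level was below every 0 h level, and PSMB3 fell by 0.49 ± 0.08 on the log2 scale, with the same sign on 6 of 6 arrays (ratio -0.49, limma, adjusted p = 0.0199). The size differed between the dyes: the ratio was -0.76 over the 3 arrays with the 6 h RNA in Cy5 and -0.22 over the 3 with it in Cy3, where it did not pass (limma, adjusted p = 0.255). It also did not pass without replicate 2 (limma, adjusted p = 0.113) or without replicate 3 (limma, adjusted p = 0.0666), and over all alternatives the adjusted p ran between 0.00941 and 0.255.

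PSMB2 (probe EMBV3_28511), also structural, was the beta gene called higher. Its level was 13.89, 14.18 and 14.04 at 6 h, against 13.48, 13.70 and 13.72 at 0 h. The groups did not overlap, and PSMB2 rose by 0.41 ± 0.08 with the same sign on 6 of 6 arrays (limma, adjusted p = 0.0351). It was called in 11 of 18 alternatives, and the ratios over all of them ran between 0.34 and 0.46. Leaving out any 1 replicate ended the call, with adjusted p-values of 0.0585, 0.193 and 0.0981 without replicates 1, 2 and 3 (limma).

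Of the subunits that carry the proteolytic sites, none passed. PSMB5, the chymotrypsin-like site, had the lowest ratio of these, -0.39 ± 0.19 (limma, adjusted p = 0.0574). Its level was 12.61, 13.24 and 12.84 at 6 h, against 13.21, 13.47 and 13.19 at 0 h, lower at 6 h in each replicate and on 6 of 6 arrays, although the levels of the times overlapped between replicates. PSMB6, the caspase-like site, had 0.02, 0.08 and 0.02 in replicates 1, 2 and 3, and PSMB7, the trypsin-like site, had 0.16, -0.02 and 0.03. The 95% intervals of the mean were -0.22 to 0.30 for PSMB6 and -0.22 to 0.33 for PSMB7, and over the 3 probes of PSMB7 the ratio lay between -0.06 and 0.05. PSMB1 and PSMB4, the other structural subunits, had ratios of -0.22 ± 0.22 and -0.17 ± 0.16, and neither passed. All probes of both were below 0, between -0.28 and -0.22 for the 2 of PSMB1 and between -0.26 and -0.17 for the 3 of PSMB4.

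The immunoproteasome subunits PSMB8, PSMB9 and PSMB10, which replace PSMB5, PSMB6 and PSMB7 in cells exposed to interferon, had ratios above 0. PSMB8 had 0.75, 0.99 and 1.14 in replicates 1, 2 and 3, and it rose by 0.96 ± 0.20, or 1.94-fold (limma, adjusted p = 0.00438). Its constitutive counterpart PSMB5 had -0.60, -0.23 and -0.35 in the same replicates. PSMB9 and PSMB10 had ratios of 0.37 ± 0.25 and 0.57 ± 0.67 and did not pass (limma, adjusted p = 0.0887 and 0.147). PSMB10 was 1.30 in replicate 3, against 0.41 and -0.01 in replicates 1 and 2. The difference in ratio between the members of a pair was not tested.

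**Figure D3:**
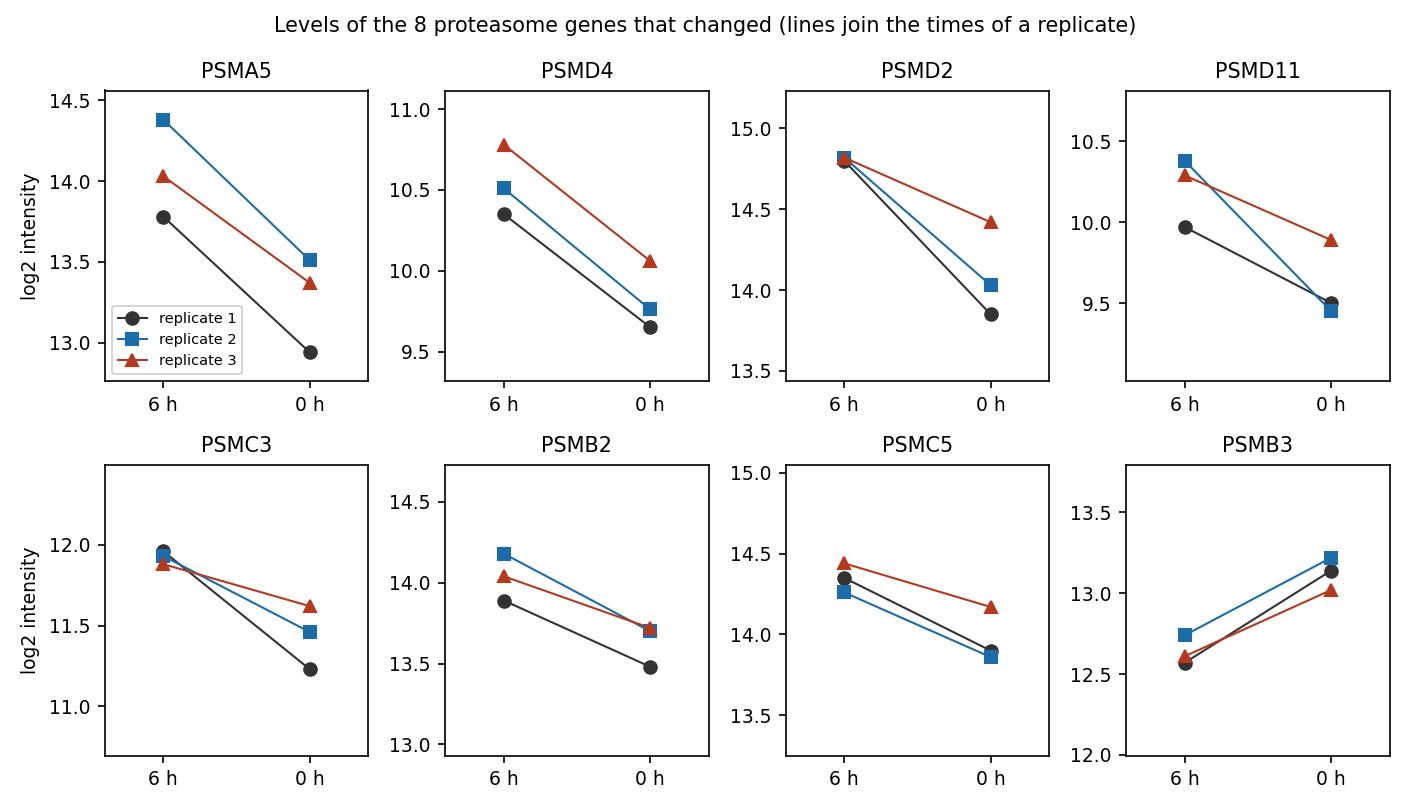
Level (log2 intensity, vertical axis) at 6 h and at 0 h in each replicate for the 8 proteasome genes called, with a line joining the times of a replicate and the same span of 1.8 units in every panel. All lines of the 7 genes called higher fall to the right, that is, each replicate was higher at 6 h, and all 3 lines of PSMB3 run the other way.

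The 19S regulatory particle held 5 of the 7 genes called higher. Of its 16 tested subunits that the rule names, 5 were higher (31.2%) and 0 lower, against 17.4% and 18.2% of all genes. A mean ratio above 0 was seen in 14 of the 16. At an unadjusted p under 0.05, 7 of the 16 were higher and 0 lower, against 21.8% and 23.8% of all genes. Its median ratio was 0.35, and by replicate it was 0.36, 0.41 and 0.23. The median of the 20S core was -0.05, 0.23 and 0.03 in the same replicates, so the 19S median was higher by 0.41, 0.18 and 0.19. These medians are a description of the named groups, and no test was made between them. ADRM1 and SEM1, 19S subunits outside the rule, are in none of these counts and medians. They had ratios of 0.30 ± 0.17 and -0.03 ± 0.15 and did not pass.

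Of the 6 ATPases, which form the ring that unfolds substrates, 2 were higher (33.3%) and 0 lower, against 17.4% and 18.2% of all genes. The median ratio of the ATPases was 0.35. PSMC3 (probe EMBV3_36702) had levels of 11.96, 11.93 and 11.88 at 6 h, against 11.23, 11.46 and 11.62 at 0 h. Levels at 6 h were nearly the same in all replicates, and those at 0 h differed more. PSMC3 rose by 0.49 ± 0.24 (limma, adjusted p = 0.0389), and its other probe also had a mean ratio of 0.49, with more spread (SD 0.43). PSMC5 (probe EMBV3_00844) had levels of 14.35, 14.26 and 14.44 at 6 h, against 13.90, 13.86 and 14.17 at 0 h, with no overlap. It rose by 0.37 ± 0.09 (limma, adjusted p = 0.0459). Both genes were positive on 6 of 6 arrays, but they were called in only 9 of 18 alternatives each, and leaving out any 1 replicate ended either call, with adjusted p-values of 0.0541 to 0.158 for PSMC3 and 0.0944 to 0.209 for PSMC5 (limma).

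PSMC1 was close to the threshold, at 0.27, 0.40 and 0.38 in replicates 1, 2 and 3 and a mean of 0.35 ± 0.07 (limma, adjusted p = 0.052). PSMC4 had a similar mean, 0.34, from 0.81 in replicate 1 and 0.02 and 0.20 in replicates 2 and 3, and did not pass. PSMC2 had a ratio of 0.08 ± 0.25. PSMC6 was the ATPase with the lowest ratio, -0.21 ± 0.39. Its levels were 11.91, 12.29 and 12.13 at 6 h, against 12.54, 12.15 and 12.26 at 0 h. By the mean of the dye swap it was lower at 6 h in replicates 1 and 3 and higher in replicate 2. The arrays of a swap had opposite signs in replicate 2 (0.40 and -0.13) and in replicate 3 (-0.29 and 0.02). Both probes of PSMC6 had nearly the same mean, -0.21 and -0.20.

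The 3 base subunits of the rule that are not ATPases had the highest median of the groups by role, 0.71. Called higher were 2 of the 3 (66.7%) and lower 0, against 17.4% and 18.2% of all genes. ADRM1, also of the base, falls outside the rule and is given below. PSMD4 (probe EMBV3_20904), a receptor for ubiquitin chains, had levels of 10.35, 10.51 and 10.78 at 6 h, against 9.65, 9.76 and 10.06 at 0 h. The groups did not overlap, and the ratios of 0.71, 0.76 and 0.72 were nearly equal in the replicates. PSMD4 rose by 0.73 ± 0.03, or 1.66-fold (limma, adjusted p = 0.00557). PSMD2 (probe EMBV3_05005), a scaffold that binds the ubiquitin-like domains of shuttle factors, had levels of 14.80, 14.82 and 14.82 at 6 h, against 13.85, 14.03 and 14.42 at 0 h. Its 6 h levels were almost identical and above each 0 h level, and it rose by 0.71 ± 0.29, or 1.64-fold (limma, adjusted p = 0.0155). A second tested probe of PSMD2 had a ratio of 0.57. Both genes were called in 17 of 18 alternatives, and without replicate 2 the adjusted p was 0.0501 for PSMD4 and 0.0954 for PSMD2 (limma), each the highest of that gene's alternatives.

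PSMD1, the other large scaffold and the docking site of ADRM1, had 0.48, 0.56 and 0.18 in replicates 1, 2 and 3. The mean of 0.41 ± 0.20 did not pass (limma, adjusted p = 0.053), although all 6 arrays had the same sign. ADRM1, itself a ubiquitin receptor of the base, had a ratio of 0.30 ± 0.17 and did not pass.

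Of 7 tested lid subunits that the rule names, which leaves out SEM1, 1 was higher (14.3%) and 0 lower. All genes had 17.4% and 18.2%, and the median lid ratio was 0.24. PSMD11 (probe EMBV3_33519), a scaffold of the lid and in human stem cells a limiting factor for proteasome assembly, had levels of 9.97, 10.38 and 10.29 at 6 h, against 9.50, 9.45 and 9.89 at 0 h. Every 6 h level was above every 0 h level, and replicate 2 differed most. PSMD11 rose by 0.60 ± 0.29, or 1.51-fold (limma, adjusted p = 0.027). The call was lost without replicate 2, where the ratio was 0.43 (limma, adjusted p = 0.14), and over the arrays with the 6 h RNA in Cy3, where it was 0.41 (limma, adjusted p = 0.135). The adjusted p ran between 0.00806 and 0.14 over all alternatives.

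PSMD14, the deubiquitinase of the lid, had the lowest ratio of the 7 lid genes of the rule, -0.01 ± 0.57, and the most spread. Its level was 12.48, 13.57 and 12.90 at 6 h, against 13.13, 13.11 and 12.75 at 0 h. It was lower at 6 h in replicate 1, by -0.65, and higher in replicates 2 and 3, by 0.46 and 0.15. PSMD7, its partner in the lid, had a ratio of 0.24 ± 0.19 and was above 0 in every replicate. PSMD3, PSMD6, PSMD8 and PSMD12, scaffolds of the lid, had ratios of 0.25, 0.38, 0.17 and 0.24, and none of these passed. PSMD6 was 0.85 in replicate 1, against 0.18 and 0.13 in replicates 2 and 3.

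**Figure D4:**
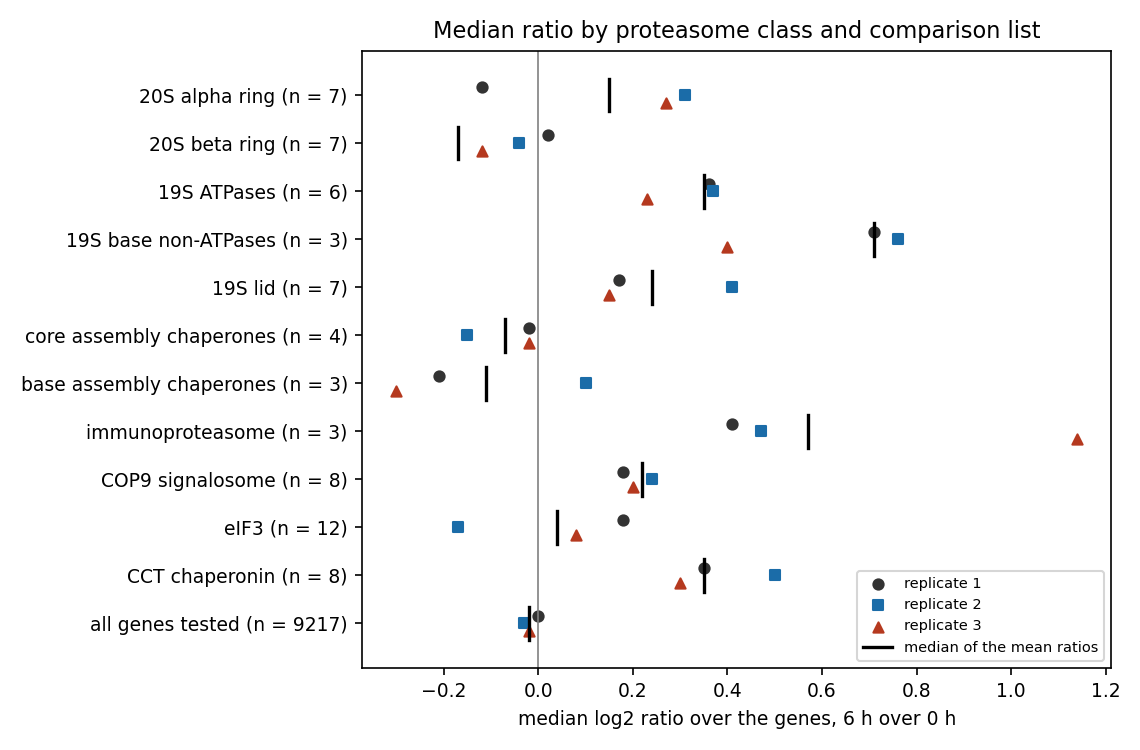
Median log2 ratio of 6 h over 0 h over the tested genes of each group (horizontal axis), with a circle, square and triangle for replicates 1, 2 and 3 and a bar for the median of the mean ratios. The 19S ATPases, the other base subunits and the lid are above 0 in every replicate, the beta ring and the assembly chaperones lie on or below 0 in most, and all genes tested lie at 0.00, -0.03 and -0.02.

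The assembly factors that the rule names and the inhibitor PSMF1, 8 genes in all, had 0 calls in either direction by limma. Their median ratio was -0.10. POMP and PAAF1, whose symbols fall outside the rule, are not among the 8, and PAAF1 was called lower (ratio -0.47 ± 0.07, limma, adjusted p = 0.0214). At an unadjusted p under 0.05, 0 were higher and 2 lower, PSMG1 and PSMG4, and 2 of 8 is close to the 23.8% of all genes that were lower at that threshold. The core assembly chaperones were the most divided group of the set, with ratios between -0.65 and 0.30. PSMG4 had the lowest ratio of all proteasome genes. Its level was 11.51, 11.14 and 12.23 at 6 h, against 12.43, 12.15 and 12.24 at 0 h. Replicates 1 and 2 were about 1 unit lower at 6 h and replicate 3 was level, so the ratio of -0.65 ± 0.56 did not pass (limma, adjusted p = 0.0731). Without replicate 3, the level one, it was -0.97 (limma, adjusted p = 0.0126, with 0.0126 to 0.303 over all alternatives). That fit drops the replicate that differed, so its p-value adds no support. PSMG4 did not pass without replicate 1 or without replicate 2. A second probe of PSMG4 had a ratio of -0.41 ± 0.53.

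PSMG2, which binds PSMG1 in the chaperone pair that scaffolds the alpha ring, had the highest ratio of the core chaperones. Its level was 12.52, 12.64 and 11.86 at 6 h, against 11.89, 12.34 and 11.90 at 0 h, so replicates 1 and 2 were higher at 6 h and replicate 3 was level. Neither the mean of its brightest probe, 0.30 ± 0.34, nor that of its other probe, -0.02, passed. PSMG1 had 4 tested probes with ratios between -0.38 and -0.16. The brightest was -0.07, -0.45 and -0.62 in replicates 1, 2 and 3 and did not pass (limma, adjusted p = 0.0966). EMBV3_20322, with -0.40, -0.23 and -0.51, was past the threshold in the fit of every probe on its own (limma, adjusted p = 0.0457). Its size differed between the dyes. With the 6 h RNA in Cy3 this probe had -0.87, -0.50 and -0.73 in replicates 1, 2 and 3. With the 6 h RNA in Cy5 it had 0.08, 0.04 and -0.30. PSMG3, the partner of PSMG4, had a ratio of 0.24 ± 0.27.

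The base assembly chaperones PSMD5, PSMD9 and PSMD10 had ratios of -0.09 ± 0.32, -0.11 ± 0.20 and -0.14 ± 0.33. In replicates 1, 2 and 3, PSMD5 had -0.21, 0.26 and -0.34, PSMD9 had -0.14, 0.10 and -0.30, and PSMD10 had -0.50, -0.09 and 0.16. None was on 1 side of 0 in every replicate. The inhibitor PSMF1 was below 0 in each replicate, at -0.07, -0.12 and -0.07, with a 95% interval of -0.35 to 0.17. PSMC3IP matches the letters of the rule but is a recombination factor that binds PSMC3, not a subunit, and it is counted in none of the groups by role. Its ratio was -0.33 ± 0.22 (limma, adjusted p = 0.102), with -0.12, -0.32 and -0.56 in replicates 1, 2 and 3.

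Several genes had more than 1 probe, which allowed a check within the gene. Of 13 genes with several tested probes, 10 had 1 sign over all of them and 3 had both signs, PSMA6, PSMB7 and PSMG2. The probes of a gene differed least for PSMC3, by 0.00, and most for PSMA2, by 0.62. In the fit of every probe on its own, 10 of the 61 tested probes of proteasome genes were higher and 2 lower. Of all 20831 probes tested, 17.6% were higher and 15.8% lower. The 9 untested probes, which were too dim on at least 1 array, all had ratios near 0, between -0.09 and 0.08. Among them were dimmer probes of genes whose brightest probe was called: PSMD2 (0.06, against 0.71 for its brightest), PSMD4 (-0.07, against 0.73) and PSMD11 (0.08, against 0.60). The untested probe of PSMD1 was -0.09, against 0.41.

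**Figure D5:**
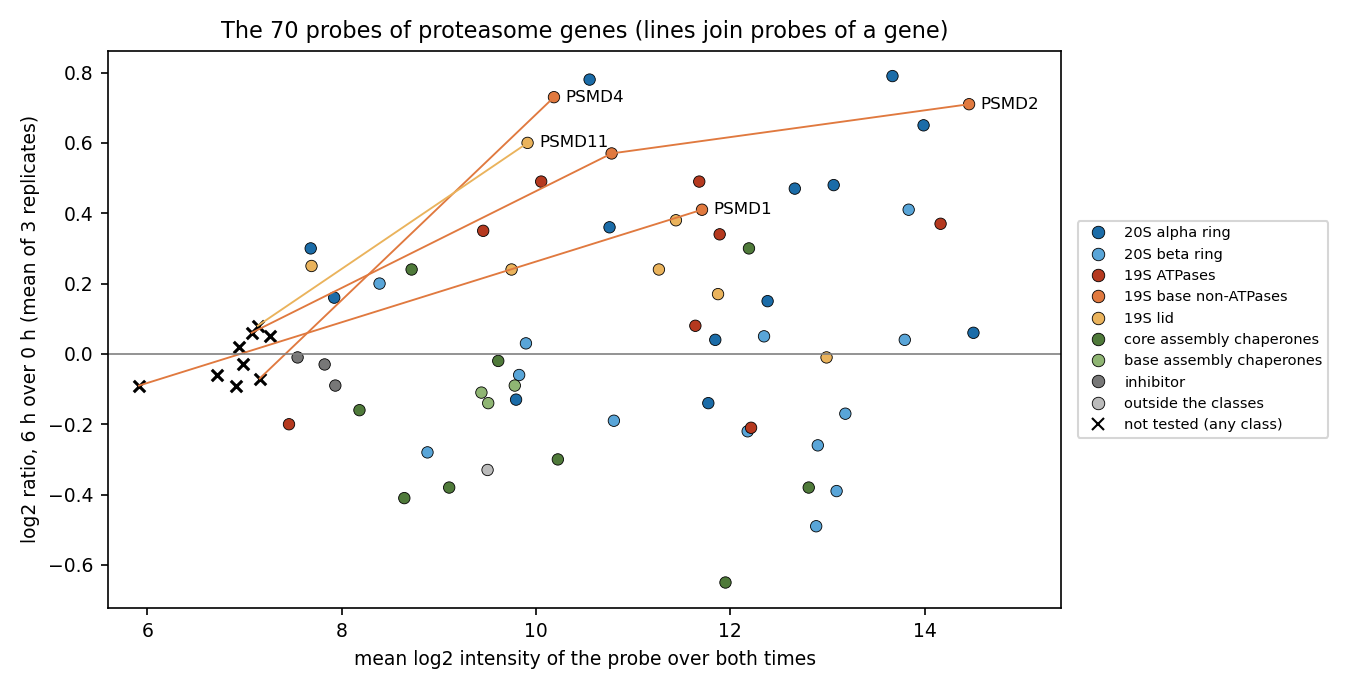
Log2 ratio of 6 h over 0 h (vertical axis, mean of 3 replicates) of the 70 probes against the probe's mean log2 intensity over both times (horizontal axis), coloured by role, with crosses for the 9 untested probes and lines joining the probes of PSMD1, PSMD2, PSMD4 and PSMD11. The crosses lie at the dim end, with ratios between -0.09 and 0.08, and each of the 4 lines rises from a cross to the gene's brightest probe.

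Of 40 other genes of the pathway, 29 were tested, of which 7 were higher (24.1%) and 5 lower (17.2%), against 17.4% and 18.2% of all genes. Their median ratio was 0.26. Of the activators that open the core, PSME2 rose by 0.78 ± 0.27 (limma, adjusted p = 0.0107), and its partner PSME1 had a ratio of 0.25 ± 0.08 and PSME4 one of 0.16 ± 0.25, with 0.41 at another tested probe of PSME4. POMP, the maturation factor of the core, had -0.44, 0.27 and -0.16 in replicates 1, 2 and 3. AKIRIN2 and IPO9, which bring proteasomes into the nucleus, had ratios of 0.04 and 0.50 and did not pass.

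The 3 tested genes with a part in transcription of proteasome genes had ratios below 0. NFE2L1, the transcription factor that raises proteasome genes when the proteasome is inhibited in human and mouse cells, had -0.31, -0.70 and -0.27 in replicates 1, 2 and 3. Its mean of -0.43 ± 0.24 did not pass (limma, adjusted p = 0.0567), and its other probes had -0.54 and 0.07. NGLY1, the enzyme that removes sugars from NFE2L1, fell, with a ratio of -0.70 ± 0.32 (limma, adjusted p = 0.0197). NFE2L2, a relative that responds to oxidants, had a ratio of -0.03 ± 0.27, and the protease DDI2 was not tested.

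Of 10 tested genes whose products bind the proteasome, 2 were higher and 2 lower (20% each), against 17.4% and 18.2% of all genes. UBE3C, a ubiquitin ligase on the 19S particle, rose by 0.76 ± 0.09 (limma, adjusted p = 0.00544), and the phosphatase UBLCP1 rose by 0.47 ± 0.18 (limma, adjusted p = 0.033). ZFAND5, an activator in mouse muscle, fell, with a ratio of -0.98 ± 0.47 (limma, adjusted p = 0.0148) and with -0.54 and -0.58 at its other probes. PAAF1, which binds the ATPases, fell, with a ratio of -0.47 ± 0.07 (limma, adjusted p = 0.0214). USP14 and UCHL5, the other deubiquitinases of the particle, had 0.29 ± 0.19 and -0.21 ± 0.18 and did not pass, with 0.04 and -0.16 at their other tested probes, and SEM1, the smallest lid subunit, had -0.03 ± 0.15.

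Of 7 tested genes that deliver substrates, 3 were higher (42.9%) and 2 lower (28.6%), against 17.4% and 18.2% of all genes. The unfoldase VCP rose by 0.58 ± 0.30 at its brightest probe (limma, adjusted p = 0.0314), and its other tested probe had a ratio of 0.21. Its adaptor NPLOC4 rose by 0.37 ± 0.07 (limma, adjusted p = 0.0448), while the other adaptor, UFD1, had -0.16 ± 0.10. BAG6, a holdase for misplaced membrane proteins, rose by 0.92 ± 0.47 at its brightest probe (limma, adjusted p = 0.0185), but its other tested probe had a ratio of 0.02. The shuttle factor UBQLN2 had a ratio of -0.61 ± 0.14 and the autophagy receptor SQSTM1 one of -0.44 ± 0.08, and both fell (limma, adjusted p = 0.0122 and 0.0284). RAD23B, another shuttle factor, had 0.72, 0.66 and 0.10 in replicates 1, 2 and 3 and did not pass.

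Complexes of similar build gave a measure of how far subunits of other assemblies moved. Over all genes tested, 17.4% were higher and 18.2% lower. The COP9 signalosome, a relative of the lid, had 1 of 8 tested subunits higher, COPS7A, and 1 lower, COPS2, with a median ratio of 0.22. The translation initiation factor eIF3, also a relative of the lid, had 2 of 12 higher and 3 lower, with a median of 0.04 and ratios between -0.94 and 1.13. The chaperonin CCT, a folding barrel, had 4 of 8 higher and 0 lower, CCT5, CCT7, CCT8 and TCP1, with a median of 0.35. By median the 16 tested 19S genes of the rule were level with CCT and above COP9 and eIF3, and no test was made between the complexes.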

How the data were processed

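The authors deposited scanner intensity per spot and channel, not background corrected, per the file headers. They also deposited a matrix and a series value table of log2 ratios (Cy5 over Cy3, as the values show), identical to each other, with medians per array of -0.0186 to 0.00676. How they were background corrected and normalized was not stated in the labels or headers used. They served as alternatives and correlated at r = 0.99 to 0.995 across probes with the ratios computed here. Per the labels' protocols, RNA was amplified linearly with T7 polymerase before labelling, which can alter ratios between transcripts.

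Spot means were corrected with normexp (median local background, offset 50, fitted without the 11 to 69 ignored spots per array) and normalized by loess within each array. Ratios were turned to 6 h over 0 h through the dye labels, and dye swaps were averaged, so n = 3. Each array held both times of 1 replicate, so pairing is in the ratio. Probes entered the test if they passed the background filter on every array at 6 h or on every array at 0 h, and a gene was read from its brightest tested probe. Ratios were tested against 0 with limma 3.58.1 in R 4.3.3 (lmFit and eBayes, two-sided), adjusted by Benjamini-Hochberg over 9217 genes, and called marks an adjusted p under 0.05. Levels followed Aquantile scaling. Median spot intensity was 208 to 264 in Cy3 and 169 to 212 in Cy5, and mean negative control intensity was 163 to 203 and 123 to 176. The number of biological replicates, 3, limits the precision. No member spot was saturated.

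Of 43794 probes, 21790 had 1 gene symbol, updated through RefSeq's table for ARS-UCD2.0. All 70 member probes kept their symbol. The procedure was tested on simulated data. Values were given in every replicate for the genes with the highest and lowest ratio of each group, for called genes and for genes whose probes disagree. The members and lists were chosen with earlier results of these data known. Alternatives were 18: other background corrections, normalizations, filters, probe rules and dye subsets, a random block, and each replicate left out. Planned promoter motifs were not analysed here.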

Additional observations from a re-analysis of the deposited data

How the results depend on the processing

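The 7 genes called higher at 6 h became 4 under median centring in place of loess and under the authors' matrix and value table. The 1 called lower became 2 under these 3 alternatives and without background correction, 3 in a fit of 6 arrays with the replicate as a random block, 4 over the arrays with the 6 h RNA in Cy5 and 0 over those with it in Cy3. Leaving out 1 replicate gave 1 to 5 proteasome genes higher, 0 to 3 lower, and 1351 to 3338 genes called over the array, each lowest without replicate 2. The median ratio of all proteasome genes ran between 0.08 and 0.17 over the alternatives, and that of the 20S core crossed 0, at -0.02 under the authors' tables and without replicate 2 and -0.01 under median centring. The median ratio of the assembly factors ran between -0.20 and -0.06 when 1 replicate was left out, with -0.20 without replicate 2. The median of the ATPases was 0.25 over the arrays with the 6 h RNA in Cy5. The median of all genes was -0.04 under median centring and the authors' tables and 0.00 with a stricter filter on dim probes. The causes were not tested. Of genes not called, PSMC1 and PSMD1 were called higher in 6 alternatives each and PSMA2 in 3. PSMB5 was called lower in 6 alternatives, PSMG4 in 3, PSMC3IP in 2 and PSMG1 in 1. No called gene changed sign in any alternative. The mean local background and counting ignored spots as below background were added after seeing the data, and gave 20.5% of the proteasome genes called, as before. Dim probes may limit what can be seen. The 9 untested probes had ratios near 0, also for PSMD2, PSMD4 and PSMD11, whose brightest probe was called. Whether this came from their dimness was not tested.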
